A study of Mus musculus with 6 samples.

Results

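The small nuclear RNA 7SK (gene Rn7sk) and 8 genes of the elongation machinery that it regulates were followed in keratinocytes captured from healing mouse skin. The genes were Larp7, Mepce, Hexim1, Cdk9, Ccnt1, Ccnt2, Aff4 and Ell2, and every probe set annotated to one of these 9 symbols was taken. That gave 11 probe sets of the 23410 with a gene symbol on the array, with 2 each for Rn7sk and Larp7, and no member lay on a probe set that names several genes. Rn7sk entered the list because its signal had been seen to differ between diabetic and normal samples, so its differences are described here and not tested. The other 8 genes were listed for their role, though with earlier results of these data known.

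The diabetic group was 3 arrays of mice given a high fat, high fructose diet from 8 weeks of age for 16 weeks, and the normal group was 3 arrays of mice on a control diet over the same time. Strain and sex of the animals are not stated in the labels used here. In both groups wounds were harvested on day 3, the tissue was fixed, and cells at the tip of the epithelial tongue, located by E-cadherin staining, were taken by laser capture and accumulated per sample. The sample titles call the arrays biological replicates. No label states that each array came from a separate mouse, so the spread between arrays may be partly technical. Values are given as log2 probe set signals and differences as diabetic minus normal on that scale, with n = 3 arrays per group.

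7SK is an abundant noncoding RNA made by RNA polymerase III. It holds the kinase P-TEFb, a pair of Cdk9 with cyclin T1 or T2, in an inactive particle in which Hexim1 or its relative Hexim2 blocks the kinase. Mepce caps the 5′ end of 7SK and Larp7 binds its 3′ end, and both keep the RNA stable. P-TEFb released from the particle phosphorylates RNA polymerase II and its pausing factors and so lets paused polymerase proceed. The scaffold Aff4 and the elongation factor Ell2 carry active P-TEFb in the super elongation complex.

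The arrays were dim, which limits what can be seen of the proteins' messenger RNAs. A background limit, the 95th percentile of 1205 probe sets of olfactory and vomeronasal receptors on each array, lay between 1.98 and 2.11. This limit was 1.98 and 2.00 on diabetic replicates 1 and 2, and 2.10 to 2.11 on the other arrays. It was exceeded on all 6 arrays by 17.8% of the probe sets with a symbol. Diabetic arrays had 35.1%, 36.0% and 29.5% of these probe sets above it, against 27.4%, 28.5% and 28.8% for normal arrays. The 2 highest shares were those of the 2 arrays with the lowest limit. Of 15 keratinocyte markers, 3 were above it throughout (Krt15, Krt10 and the laminin gene Lamb3, with means of 2.40, 2.24 and 2.30 over all arrays) and 6 on no array. The basal keratin genes Krt5 and Krt14 exceeded it on 2 diabetic and 0 normal arrays each, Trp63 on 0 diabetic and 2 normal arrays and Cdh1, the E-cadherin gene, on none. Such counts depend on each array's limit, as Krt14 passed at 2.05 on diabetic replicate 2 but not at 2.07 on normal replicate 2. These 4 defining markers of the captured cell type were thus at or near background, and the 3 brighter ones lay only a little above it.

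Both probe sets of 7SK RNA had higher mean signal in diabetic keratinocytes, and they were far above background on every array. Probe set 10426437 was at 8.02, 7.78 and 6.12 on the diabetic arrays, against 4.94, 6.15 and 4.66 on the normal arrays. Diabetic replicates 1 and 2 lay above all normal arrays, while diabetic replicate 3 lay level with normal replicate 2, so the groups overlapped. The means were 7.31 ± 1.03 (SD, n = 3) in diabetic and 5.25 ± 0.79 (SD, n = 3) in normal samples, a difference of 2.06 (SE 0.49), or 4.16-fold in signal.

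Probe set 10595140 was at 6.79, 4.12 and 5.47 on the diabetic arrays, against 3.76, 4.04 and 3.80 on the normal arrays. The groups did not overlap, but diabetic replicate 2 was only just above normal replicate 2. The normal arrays were tight and the diabetic arrays wide, with means of 5.46 ± 1.34 (SD, n = 3) in diabetic and 3.86 ± 0.15 (SD, n = 3) in normal samples. The difference was 1.60 (SE 0.50), or 3.02-fold in signal. Of all probe sets, 4.97% had groups that did not overlap with the diabetic arrays higher. Since Rn7sk was chosen on this contrast, nothing is read from that share.

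**Figure D1:**
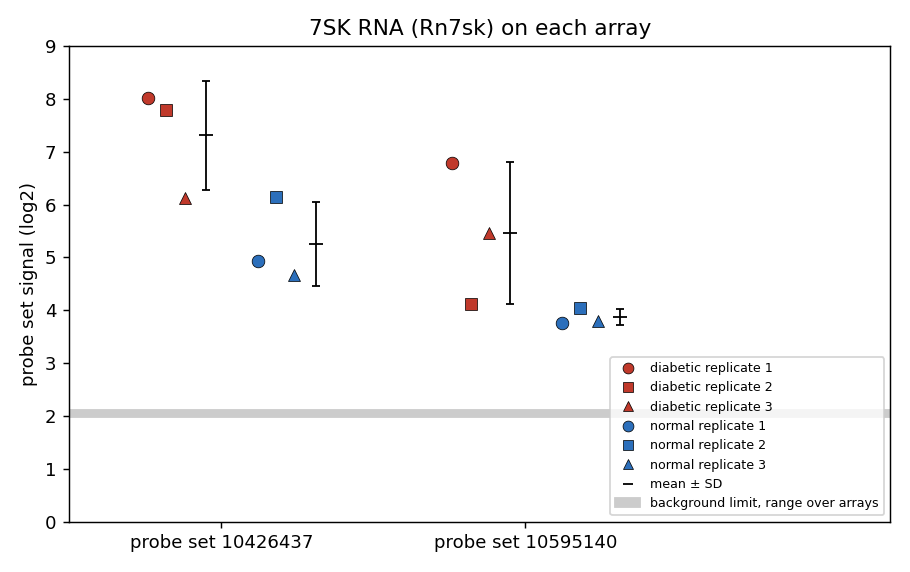
Log2 signal of both Rn7sk probe sets (vertical axis) on each array, with diabetic arrays in red left of normal arrays in blue, a symbol shape per replicate number, black bars for mean ± SD (n = 3) and a grey band for the range of the background limit over arrays. Diabetic replicate 1 is the highest array for both probe sets, at 8.02 and 6.79, while diabetic replicate 2 is at 7.78 for 10426437 and at 4.12 for 10595140.

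The probe sets did not order the diabetic arrays alike. Diabetic replicate 2 was second highest of the 6 arrays for 10426437, and for 10595140 it was the lowest of the diabetic arrays. Across the 6 arrays their Pearson correlation was 0.64 and their Spearman correlation 0.77, and after subtracting the group means the Pearson correlation was 0.15. These are descriptions of probe sets read on the same 6 arrays, which also share the group difference.

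One array carried much of the difference for 10595140. Without diabetic replicate 1 the difference was 0.93 for this probe set and 1.70 for 10426437. Without diabetic replicate 2 it was 2.27 for 10595140 and 1.82 for 10426437. Leaving out any single array kept both differences above 0, which the lack of overlap fixes in advance for 10595140. Since Rn7sk was chosen on this difference, nothing is read from the kept sign. Among 23410 probe sets the differences ranked at places 7 and 14 from the top. The spread within groups was also large, and the residual SDs of 0.92 and 0.95 each exceeded those of 99.8% of probe sets. At least 2-fold higher mean signal in diabetic samples was found for 51 probe sets (0.218%), and at least 2-fold lower for 0.

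Ribosomal protein genes and skeletal muscle markers also had higher summed signal on the diabetic arrays. The summed linear signal of 61 ribosomal protein genes, followed for RNA quality, was 574.1 to 684.1 on the diabetic arrays, against 433.9 to 524.9 on the normal arrays, without overlap, although the median difference of these genes was 0.03. Of these 61 genes 34 were higher and 27 lower, with single differences from -0.63 to 2.51. An unadjusted p under 0.05 in limma was reached by 6 higher and 3 lower, against 2.65% and 2.94% of all probe sets. The sums on diabetic replicates 1, 2 and 3 were 669.9, 574.1 and 684.1, so replicate 2 was lowest in its group for this sum and for 10595140, while replicate 3 was highest for the sum and lowest for 10426437. For 11 skeletal muscle markers, 9 higher and 2 lower, the sum was 62.7 to 68.0 in diabetic and 56.9 to 61.8 in normal samples, where 5 markers were above the limit throughout and 3 on no array. The 15 keratinocyte markers summed to 58.5 to 61.0 in diabetic and 60.5 to 63.4 in normal samples, overlapping, with 8 higher and 7 lower.

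Other cell types overlapped between the groups. Fibroblast markers summed to 33.1 to 40.6 in diabetic and 31.8 to 33.3 in normal samples (5 of 6 higher), and macrophage and neutrophil markers to 30.4 to 31.5 in diabetic and 30.4 to 38.2 in normal samples (3 of 10 higher). The sums of 5 endothelial markers were 18.3 to 19.5 in diabetic and 18.3 to 19.7 in normal samples. Those of 5 adipocyte markers were 20.8 to 22.4 in diabetic and 19.9 to 20.9 in normal samples. Of the red blood cell markers 1 was measured, at -0.13. In such bulk samples, fewer cells of a type and less RNA per cell cannot be told apart. The part of RNA quality and of other cells in the 7SK difference was not tested.

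The annotation gives both probe sets the same 7SK transcript, but their probe set numbers place them differently. Numbers on this array largely follow chromosomes, with 94.3% of neighbouring single-gene probe sets on the same chromosome in the mouse RefSeq gene table (GRCm38.p6). The nearest named neighbours of 10595140 are Fbxo9 and Omt2a, on the chromosome of Rn7sk in that table, with 1 and 8 genes between each and Rn7sk. The nearest named neighbours of 10426437 are Pdzrn4 and Pphln1, which lie on another chromosome than Rn7sk. Mammalian genomes hold many near-identical copies of 7SK, and which copies each probe set reads was not tested. The same split was seen for Larp7, whose probe set 10502029 has neighbours on the chromosome of Larp7 (Ank2 and Ap1ar), while the neighbours of 10514383 (Izumo3 and Tusc1) lie on another.

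The messenger RNAs of the proteins that cap, bind and use 7SK differed little in signal between the groups. Over the 9 probe sets of the 8 protein genes, differences ran from -0.15 to 0.25 with a median of 0.00, against a median of -0.01 over all probe sets. Of the 9, 4 were higher, 2 lower and 3 differed by less than 0.01. In limma with Benjamini-Hochberg adjustment 0 of the 9 passed, as did 0 of all 23410 probe sets (0%), the smallest adjusted p of all being 0.366. An unadjusted p under 0.05 was reached by 0 of the 9, against 5.59% of all probe sets. A fold of at least 1.5 besides that p was reached by 0 of the 9, against 0.389% of all probe sets, 0.325% with higher and 0.0641% with lower signal in diabetic samples. The groups overlapped for all 9, while 10.7% of all probe sets had groups that did not overlap in either direction. With only 9 probe sets nothing is read from that count. The 95% confidence intervals lay between -0.40 and 0.69, inside 2-fold for each of the 9 and inside 1.5-fold for 8. Where a gene is at background, its interval is one of array signal and sets no bound on a difference in RNA.

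**Figure D2:**
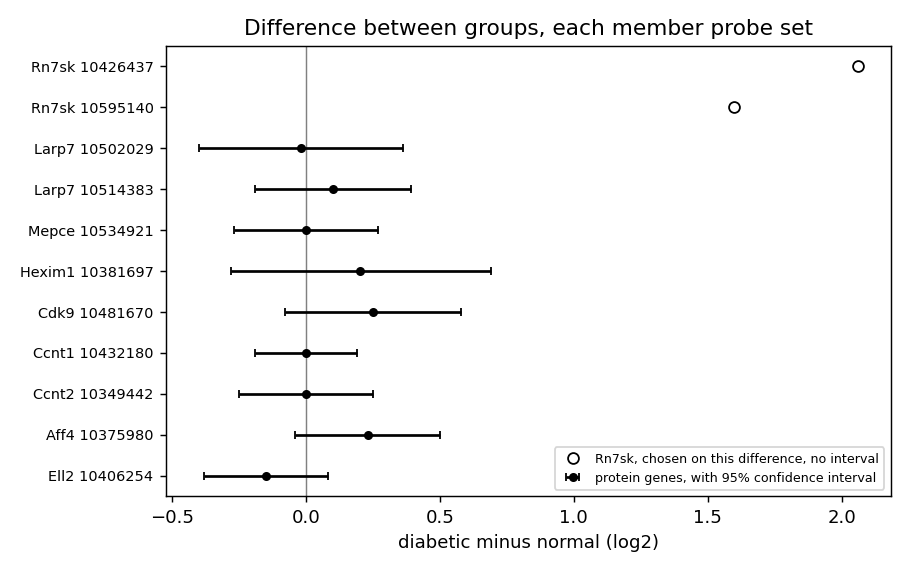
Diabetic minus normal difference in log2 signal (horizontal axis) for each of the 11 probe sets, with filled dots and bars for the fitted difference and its 95% confidence interval in limma for protein genes, open dots for Rn7sk, which was chosen on this difference and is shown without an interval, and a vertical line at 0. The 9 probe sets of protein genes lie between -0.15 and 0.25, and Rn7sk lies at 2.06 and 1.60.

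Among the core proteins of the particle, Larp7 was the one seen above background throughout. Its probe set 10502029 was at 2.21, 2.54 and 2.64 on the diabetic arrays, against 2.40, 2.81 and 2.24 on the normal arrays. The highest and second lowest values were both normal, and the difference was -0.02 (SE 0.17, 95% confidence interval -0.40 to 0.36). Its other probe set, 10514383, was at 1.80, 2.05 and 2.08 on the diabetic arrays, against 1.68, 1.95 and 2.00 on the normal arrays, and exceeded the limit on 1 diabetic array. Its difference was 0.10 (SE 0.13), so neither Larp7 probe set differed between the groups beyond the spread of the arrays.

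Mepce, the 7SK capping enzyme, was at background. It had 1.46, 1.72 and 1.71 on the diabetic arrays, against 1.82, 1.57 and 1.5 on the normal arrays, and exceeded the limit on none. Both groups averaged 1.63, with a 95% confidence interval of the difference from -0.27 to 0.27.

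Hexim1, the inhibitor that 7SK brings to P-TEFb and itself a gene induced when P-TEFb is released, varied most of the protein genes. It was at 1.76, 2.40 and 1.60 on the diabetic arrays, against 1.70, 2.09 and 1.36 on the normal arrays. The second replicate was the highest of its group in both, and diabetic replicate 2 was the only array above the limit. The difference was 0.20 (SE 0.22, 95% confidence interval -0.28 to 0.69), and with single arrays left out it ran from -0.04 without diabetic replicate 2 and 0.03 without normal replicate 3 to 0.36 without diabetic replicate 3 and 0.39 without normal replicate 2. The SD of Hexim1 over the 6 arrays, 0.37, was larger than for 97.7% of probe sets.

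Cdk9, the P-TEFb kinase, was above background on 5 arrays. It was at 2.51, 2.65 and 2.48 on the diabetic arrays, against 2.49, 2.39 and 2.00 on the normal arrays. The diabetic arrays lay close together, and the groups overlapped through normal replicate 1. The difference was 0.25 (SE 0.15, 95% confidence interval -0.08 to 0.58), which was 0.10 without normal replicate 3, the lowest array.

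The cyclin partners of Cdk9 were at background in both groups. Ccnt1 was at 1.36 on each diabetic array, against 1.32, 1.42 and 1.35 on the normal arrays, and its SD over the arrays, 0.03, exceeded that of only 0.3% of probe sets. Ccnt2 was at 1.71, 1.68 and 1.59 on the diabetic arrays, against 1.69, 1.81 and 1.48 on the normal arrays. Both genes differed by less than 0.01 between the group means, and neither exceeded the limit on any array, so no more than an upper bound on their RNA was measured.

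The super elongation complex genes were at background as well. Aff4, the scaffold, was at 1.88, 1.49 and 1.62 on the diabetic arrays, against 1.49, 1.30 and 1.5 on the normal arrays. Diabetic replicate 1 was the highest, and the difference of 0.23 (SE 0.12, 95% confidence interval -0.04 to 0.50) was 0.12 without it. Ell2 was at 1.22, 1.29 and 1.19 on the diabetic arrays, against 1.21, 1.41 and 1.55 on the normal arrays, a difference of -0.15 (SE 0.10, 95% confidence interval -0.38 to 0.08) that ran from -0.24 to -0.08 with single arrays left out. Leaving out any single array kept the sign for Cdk9, Aff4 and Ell2.

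**Figure D3:**
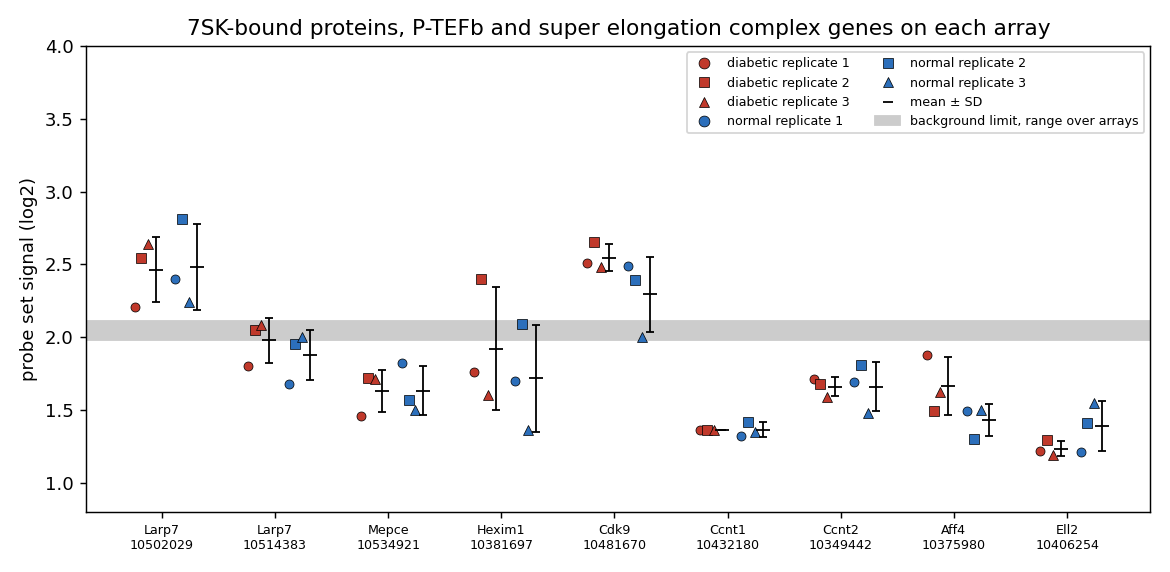
Log2 signal (vertical axis) of the 9 probe sets of protein genes on each array, with diabetic arrays in red left of normal arrays in blue, a symbol shape per replicate number, black bars for mean ± SD (n = 3) and a grey band for the range of the background limit. Only Larp7 10502029 is above the band on all arrays, Cdk9 reaches it with normal replicate 3 at 2.00, and the groups overlap for every probe set.

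Other genes of the pathway were taken from lists drawn up by function, with the brightest probe set standing for a gene, and 0 passed adjustment in any list. For reading their counts, an unadjusted p under 0.05 was reached by 2.65% of all probe sets with higher and by 2.94% with lower signal in diabetic samples, and 48.1% of all probe sets had a difference above 0. Many measured genes exceeded the limit on no array. These were 3 of 7 7SK-binding proteins, 2 of 12 super elongation complex members and recruiters and 7 of 17 pausing and elongation factors. They were also 9 of 12 other kinases, cyclins and phosphatases, 4 of 12 polymerase II subunits, 11 of 27 polymerase III genes and 6 of 17 primary response genes. Of 7 measured proteins that also bind 7SK, 2 were higher and 5 lower, the median difference was -0.05, and 0 had an unadjusted p under 0.05. Hexim2, which can replace Hexim1, was at 1.95, 2.03 and 2.01 on the diabetic arrays, against 2.25, 1.97 and 2.18 on the normal arrays, a difference of -0.13 (SE 0.12). The splicing factor gene Srsf2 differed by -0.16 and the RNA-binding protein gene Hnrnpa2b1 by 0.13, both with overlapping groups.

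Of 12 measured super elongation complex members and P-TEFb recruiters, 9 were higher and 3 lower, and the median difference was 0.08. At an unadjusted p under 0.05, 1 was higher and 2 were lower. The higher one, the bromodomain gene Brd3, was at 2.41, 2.64 and 2.24 on the diabetic arrays, against 1.86, 2.25 and 2.04 on the normal arrays, a difference of 0.38 (SE 0.15, adjusted p 0.852 in limma). Jmjd6, the gene of an oxygenase, was at 1.78, 1.81 and 1.78 on the diabetic arrays, against 2.27, 1.97 and 2.09 on the normal arrays, a difference of -0.32 (SE 0.12). Its signal was above the limit on 0 diabetic arrays and 1 normal array. Mllt3, a chromatin reader of the complex, differed by -0.29 (SE 0.12) and was above the limit on all arrays. The groups did not overlap for Jmjd6 and Mllt3, and overlapped for Brd3 through normal replicate 2 and diabetic replicate 3. The groups did not overlap, with the diabetic arrays lower, for 5.76% of all probe sets.

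Pausing and elongation factors were split 9 higher and 8 lower over 17 measured genes, with a median difference of 0.01 and 1 lower at an unadjusted p under 0.05. That one was Leo1, a subunit of the PAF complex, at -0.29 (SE 0.13). Nelfcd, of the negative elongation factor that holds polymerase at pause sites, differed by -0.36 (SE 0.17) and Tcea1, a factor that restarts arrested polymerase, by 0.46 (SE 0.22). A second probe set of Tcea1 differed by -0.11, so that gene's probe sets disagreed in sign. The 12 other transcription kinases, cyclins and phosphatases had 5 higher and 7 lower (median -0.03), with Cdk7, the kinase of the initiation factor TFIIH, at -0.34 (SE 0.12), Rpap2 at -0.21 and Ccnk, the cyclin of Cdk12 and Cdk13, at 0.22. Cdk7 was the 1 lower at an unadjusted p under 0.05, but was below the limit on all arrays, and its second probe set differed by -0.08. Rpap2 was below the limit on all arrays as well.

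RNA polymerase II subunit genes had 5 higher and 7 lower of 12 (median -0.04), with 0 at an unadjusted p under 0.05. The smallest p values were those of Polr2h at -0.32 (SE 0.15), Polr2d at -0.22 and Polr2e at 0.33. A second probe set of Polr2h differed by -0.11. Polr2d was below the limit on all arrays. Primary response genes, whose paused polymerase is released by P-TEFb, had 8 higher and 9 lower of 17 (median -0.03), and 2 higher and 2 lower genes had an unadjusted p under 0.05. The NF-kappaB inhibitor gene Nfkbia was at 2.36, 2.58 and 2.29 on the diabetic arrays, against 2.05, 1.97 and 1.67 on the normal arrays, a difference of 0.51 (SE 0.14). The cytokine gene Tnf went the other way at 1.77, 1.98 and 1.71 on the diabetic arrays, against 2.24, 2.40 and 2.22 on the normal arrays, a difference of -0.46 (SE 0.12), and Ier3, an early response gene, differed by -0.35 (SE 0.13). The groups did not overlap for these 3 genes, and their smallest adjusted p in limma was 0.791. In the whole list 2 genes were higher and 3 lower without overlap, against 4.97% and 5.76% of all probe sets. Nfkbia was above the limit on 3 diabetic and 0 normal arrays, Tnf on 0 and 3, and Ier3 on 0 and 2.

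The machinery that transcribes 7SK, RNA polymerase III with its initiation factors, had 19 genes higher and 8 lower of 27 measured, with a median difference of 0.03. At an unadjusted p under 0.05, 2 were higher and 0 lower. Polr3d, a polymerase III subunit gene, was at 2.89, 2.79 and 3.04 on the diabetic arrays, against 2.05, 2.54 and 2.57 on the normal arrays. The groups did not overlap, and the difference was 0.52 (SE 0.16, adjusted p 0.791 in limma). The catalytic subunit gene Polr3a differed by 0.27 (SE 0.12), with 1 diabetic and 0 normal arrays above the limit, and Polr1c, shared with polymerase I, by 0.30 (SE 0.15).

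Other small noncoding RNAs were listed to set 7SK beside RNAs of like size and, in part, the same polymerase. Of 19 listed genes 10 were measured, of which 8 were higher and 2 lower, with the median difference at 0.30. An unadjusted p under 0.05 was reached by 4 higher and 1 lower. The RNase MRP RNA gene Rmrp was at 6.39, 4.26 and 3.06 on the diabetic arrays, against 2.99, 3.15 and 3.02 on the normal arrays. Rny1, a Y RNA gene, was at 6.71, 2.76 and 5.16 on the diabetic arrays, against 2.37, 3.49 and 2.76 on the normal arrays. Diabetic replicate 1 was the highest array for both, and for Rny1 diabetic replicate 3 was also above every normal array. The groups overlapped for both genes. The differences were 1.52 (SE 0.6) for Rmrp and 2.01 (SE 0.73) for Rny1. Among all probe sets these ranked at places 18 and 8, beside places 7 and 14 for Rn7sk.

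The RNase P RNA gene Rpph1, also a polymerase III product, was at 8.84, 7.95 and 7.49 on the diabetic arrays, against 7.11, 8.38 and 6.75 on the normal arrays, a difference of 0.68 (SE 0.44). Terc, the telomerase RNA gene, was at 2.25, 2.15 and 2.15 on the diabetic arrays, against 1.63, 2.10 and 1.60 on the normal arrays, without overlap. Its signal was above the limit on 3 diabetic and 0 normal arrays. Snord118, the U8 small nucleolar RNA gene, was at 4.52, 1.38 and 3.05 on the diabetic arrays, against 1.21, 0.99 and 1.17 on the normal arrays, with the same values on both of its probe sets. The Snord118 difference was 1.86 (SE 0.56), with 2 diabetic and 0 normal arrays above the limit. Snord118 and Rny1 shared with Rn7sk 10595140 the order of the diabetic arrays, replicate 1 highest and replicate 2 lowest. Rmrp, Rpph1, Rny3, Vaultrc5 and Rnu12 had instead the order of Rn7sk 10426437, replicate 1 highest and replicate 3 lowest.

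The 2 small RNA genes with lower signal were Rnu6 and Rnu3a. Rnu6, the U6 spliceosomal RNA gene, was at 0.88, 0.99 and 0.89 on the diabetic arrays, against 1.39, 2.23 and 1.47 on the normal arrays, lower without overlap, though only normal replicate 2 was above the limit. Its difference was -0.78 (SE 0.18, adjusted p 0.791 in limma). Vaultrc5, a vault RNA gene, differed by 0.10 (SE 0.69), Rny3 by 0.19 (SE 0.50), Rnu12 by 0.16 (SE 0.16) and Rnu3a by -0.05 (SE 0.13), all with overlapping groups. Rnu3a was under the limit on every array.

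Diabetic replicate 1 was the highest of the 6 arrays for 7 of the 10 small RNA genes, as it was for both Rn7sk probe sets. It was the highest array for 13.8% of all probe sets and for 1 of the 9 probe sets of the protein genes. Of 5 measured nuclear long noncoding RNAs 4 were higher. Malat1, retained in nuclear speckles, stood at 5.75, 2.59 and 2.99 on the diabetic arrays, against 2.42, 2.65 and 2.67 on the normal arrays, and so was high on that array alone. Snhg11 differed by 0.46 (SE 0.18) without overlap, its other probe set differed by 0.07, and Tug1 differed by -0.06.

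**Figure D4:**
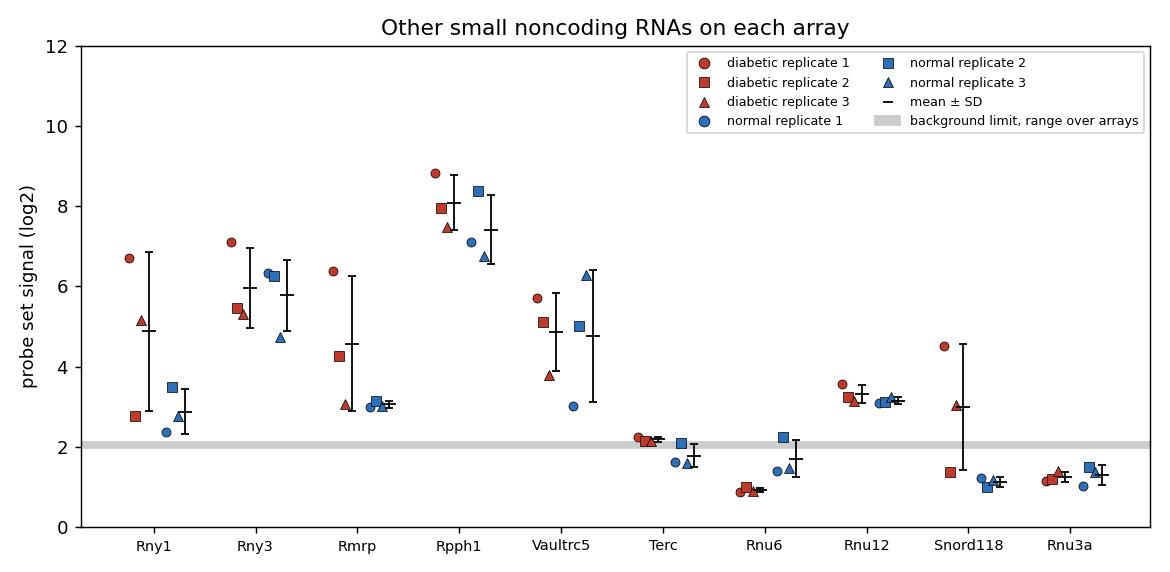
Log2 signal (vertical axis) of 10 other small noncoding RNA genes on each array, with diabetic arrays in red left of normal arrays in blue, a symbol shape per replicate number, black bars for mean ± SD (n = 3) and a grey band for the range of the background limit. Diabetic replicate 1 (red circle) is the highest array for 7 of the 10 genes, and Rnu6 is the gene with all diabetic arrays below all normal arrays.

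The probe sets whose pattern over the 6 arrays was most like that of Rn7sk 10426437 were led by a ribosomal protein gene. Among 635 single-gene probe sets with a mean above the median background limit and an SD of at least 0.3, the 8 with the highest Pearson correlation had values of 0.955 to 0.977. Of these, 4 belonged to Rps18, a protein of the small ribosomal subunit, and the others to Gm4981, the nuclear pore gene Nup50, the small membrane protein gene Smim38 and the sodium pump subunit gene Atp1b1. Their own differences, 0.44 to 0.72, were smaller than that of Rn7sk. After subtracting the group means their correlations were 0.88 to 1.00, which the choice of these probe sets largely fixes. These are descriptions over 6 arrays that share their hybridisation, with the genes picked for their correlation. Of the 635 probe sets, 19 had a correlation over 0.9. The normal means of Smim38 and Gm4981, 1.97 and 1.91, lay under the median limit, so both passed that filter only through the diabetic arrays. The SD filter also favours probe sets whose groups differ.

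Rps18 probe set 10409968 was at 5.22, 4.87 and 4.64 on the diabetic arrays, against 3.96, 4.68 and 3.90 on the normal arrays. It followed 10426437 with diabetic replicates 1 and 2 highest and normal replicate 2 level with diabetic replicate 3. Its correlation was 0.955 with 10426437 and 0.738 with 10595140. Over all 7 probe sets of Rps18 the correlation with 10426437 ran from -0.72 to 0.977, where the negative one was probe set 10549802, dim at 1.45 to 2.04. Among the protein genes of the pathway, the Pearson correlation with 10426437 was 0.70 for Cdk9, 0.65 for Hexim1 and 0.49 for Aff4. It was 0.465 for Ccnt2, 0.32 for Ccnt1, 0.139 and 0.029 for Larp7, -0.204 for Mepce and -0.45 for Ell2. After subtracting group means it was 0.43 for Cdk9, 0.71 for Hexim1, -0.1 for Aff4, 0.78 for Ccnt2 and 0.54 for Ccnt1. For Larp7 it was then -0.27 and 0.11, for Mepce -0.34 and for Ell2 0.09. Of these genes Mepce, Ccnt1, Ccnt2, Aff4 and Ell2 were under the limit on every array.

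**Figure D5:**
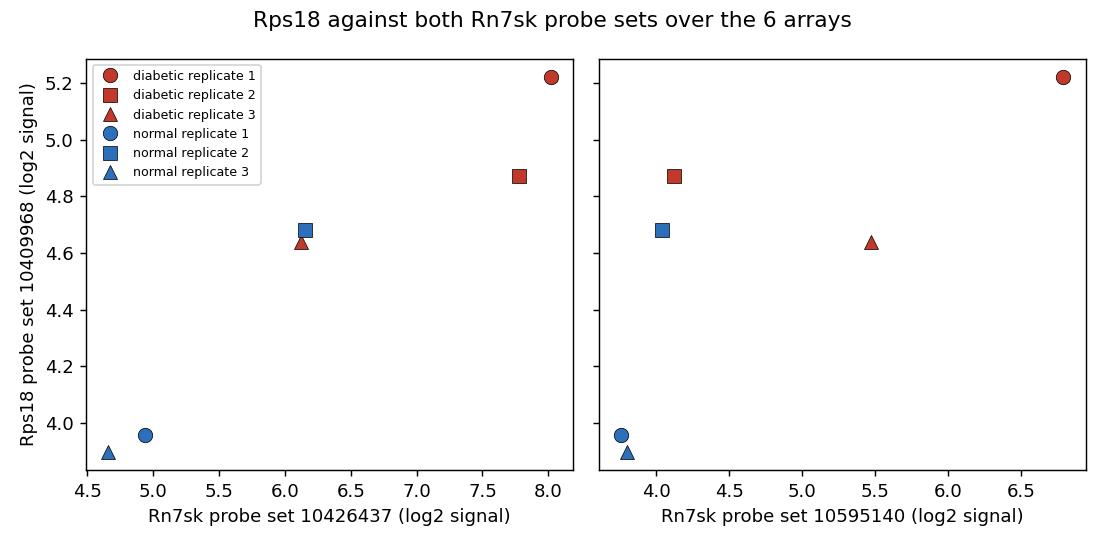
Log2 signal of Rps18 probe set 10409968 (vertical axis) against Rn7sk probe sets 10426437 (left) and 10595140 (right) over the 6 arrays, with diabetic arrays in red, normal arrays in blue and a symbol shape per replicate number. The points rise together on the left (Pearson correlation 0.955) and more loosely on the right (0.738), where diabetic replicate 2 lies at 4.12.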

How the data were processed

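The values the authors deposited are log2 signals of 35556 probe sets for each of 6 arrays. The log base was taken from the values. The submitters' processing notes name Partek. Background correction, normalization and summarization steps were not given in the sources used here. Precision is limited by 3 arrays per group.

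The platform's annotation table gave names, with 1 symbol for 21789 and several for 1621. The 12146 without a symbol, which may hold controls, were left out. Symbols were updated by gene ID. The 23410 named probe sets were fitted with limma 3.58.1 in R 4.3.3 (lmFit, eBayes with intensity trend, group as only term, Benjamini-Hochberg over all). The procedure was also run on data simulated from limma's own variance model. That check does not cover how real signal behaves at background, or effects of a whole array.

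Named genes were all members, the 3 genes of smallest unadjusted p per pathway list, all other small noncoding RNAs, Krt5, Krt14, Cdh1 and Trp63, and the 8 probe sets most correlated with Rn7sk 10426437. The Rps18 probe sets beyond those, and second probe sets, were added after values were seen. The ribosomal list holds symbols of the Rpl and Rps pattern without the Rps6k kinases. Members and lists were chosen with earlier results of these data known. Alternatives covered scaling, variance model, array weights, filters, probe set choice, a replicate block and each array left out.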

Additional observations from a re-analysis of the deposited data

How the results depend on the processing

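The difference of Rn7sk 10426437 ran from 1.99 to 2.07 over 10 alternatives. These covered scaling, variance model, weights, filter, probe set choice and the replicate block. Only quantile normalization (1.99), median centring (2.07) and array weights (2) could move the difference. The other settings leave the group means as they are, so the value of 2.06 was fixed there. With each array left out in turn the difference ran from 1.70 to 2.65. The count of member probe sets with a difference above 0, 7 with no tolerance and so including Ccnt2 at less than 0.01, ran from 7 to 9 over 7 alternatives that kept all members, and from 5 to 9 with an array left out. The filters on dim probe sets kept 4 or 6 of the 11 member probe sets, and 1 probe set per gene kept 9. The count past the adjusted threshold, 0, was 0 in all 10 alternatives and 0 to 1 with an array left out, and was no member. The count of probe sets at least 1.5-fold apart whose unadjusted p was under 0.05 was 91 (0.389%). It was 590 over all deposited probe sets, 51 with the brightest probe set per gene and 24 without variance moderation, where fewer degrees of freedom or other probe sets enter. With an array left out it was 80 to 175, reaching 175 without diabetic replicate 3 and 162 without normal replicate 2.

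The groups share replicate numbers, but same-numbered arrays deviated together with correlations of only -0.05, -0.03 and 0.04, so the numbers were not taken to pair arrays. With the replicate block the count was 101 and the Rn7sk 10426437 difference 2.06, which a balanced block cannot change. Signal near background limits what can be seen of Mepce, Ccnt1, Ccnt2, Aff4 and Ell2, which were under the limit on every array.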
